A study of Homo sapiens with 24 samples.

Results

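Ribosome biogenesis and rRNA processing factors are the proteins that make, modify, cut and assemble ribosomal RNA in the nucleolus. The 49 genes described here were taken by symbol from a list of such factors, and all 49 were found among the 23354 genes of the count table. The cells were MV4-11 and KG-1a, 2 human acute myeloid leukaemia (AML) lines whose RNA was sequenced after 8 h or 24 h without drug or with 1 µM 8-chloro-adenosine (8CA) or 1 µM 8-amino-adenosine (8AA). Both drugs are adenosine analogs and differ in the substituent on the purine ring, a chlorine in 8CA and an amino group in 8AA. The 12 groups of line, drug and time held 2 libraries each, lettered A and B. MV4-11 carries a KMT2A fusion and an internal tandem duplication of FLT3, and KG-1a is an undifferentiated CD34+ line, so each stands for 1 genetic background and not for AML at large. The labels do not say whether A and B came from separate cultures, so the p-values measure the spread between these libraries, which may be technical.

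A ribosome starts as a long precursor RNA that RNA polymerase I transcribes from the rDNA repeats. Small nucleolar ribonucleoproteins (snoRNPs) then modify it: box C/D particles guide 2'-O-methylation, and box H/ACA particles guide the change of uridine to pseudouridine. Processome and assembly factors fold and cut the precursor into the small and large subunits, and late factors accompany these to the cytoplasm. Many of these genes are known targets of MYC, and leukaemia cells, which divide quickly, express them strongly. The members were grouped by role as 4 box C/D proteins, 4 box H/ACA proteins, 6 nucleolar proteins, 16 small subunit factors and 19 large subunit factors.

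The libraries held 18633963 to 24520078 counts. The fit of MV4-11 tested 12800 genes and that of KG-1a 12711, and all 49 members passed the filter on low counts in both. Lineage markers followed the line labels in part. CD34 was at 340 to 656 CPM (counts scaled to the library total by TMM) in KG-1a and near 0 in MV4-11. CD33 was at 102 to 135 CPM in MV4-11 and at most 1.06 in KG-1a. FLT3 and MEIS1 had medians of 493 and 93.6 CPM in MV4-11 and were near 0 in KG-1a. HOXA9, also taken as a marker of MV4-11, was higher in KG-1a, with a median of 27.4 CPM against 7.67. In KG-1a the myeloid markers MPO and SPI1 were low, at medians of 0.411 and 6.70 CPM, and CEBPA was at 72.9. KIT was low in both lines, at 4.65 in KG-1a and 3.99 in MV4-11. KG-1a also carried the T cell transcript CD3D at 181 to 273 CPM in every group. Replicates of 11 groups had a chi-square per degree of freedom of 1.43 to 5.20 over genes, each above counting noise alone. Among these the MV4-11 groups at 8 h stood widest, at 4.33 (untreated), 4.39 (8CA) and 5.20 (8AA). The 8AA 24 h pair of KG-1a stood further apart at 12.3. Bulk RNA cannot tell fewer cells of one kind from less RNA per cell.

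Before treatment the members were among the abundant transcripts of both lines. Per kilobase of gene length, their median level was 43.3 CPM in MV4-11 and 45.9 CPM in KG-1a, the median percentile among tested genes being 87.7 and 88.4. NPM1, the nucleophosmin chaperone, stood highest, at 933 ± 26.6 CPM per kilobase (SD, n = 4 untreated libraries) in MV4-11 and 1419 ± 95.7 in KG-1a. NCL, encoding nucleolin, came next at 903 ± 32.9 and 999 ± 58.7. In MV4-11 the means of NPM1 and NCL lay close together, and their order was not tested. PPAN, a large subunit factor, had the lowest level in both lines, 4.46 ± 0.31 and 2.66 ± 0.245 CPM per kilobase. Its locus overlaps the readthrough gene PPAN-P2RY11 in the table, so its counts are uncertain. Between untreated lines 29 members were higher in MV4-11 and 13 lower, against 43.1% and 44.3% of all genes. The log2 ratio of MV4-11 to KG-1a was -1.24 for the helicase DDX10, -0.97 for UTP20, 1.05 for the rRNA methyltransferase fibrillarin (FBL) and 1.19 for NOC4L.

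Promoter sequences were searched for CACGTG, the palindromic E-box that MYC and related factors bind, which reads the same on both strands. RefSeq windows of 250 bases before to 50 bases after a start were matched by symbol for 41 of the 49 members, with 50 listed starts (GRCh38.p14). The motif lay in 21 of these 50 windows (42%), against 8.28% of 21738 windows of all genes in the count table and 7.26% of 35116 windows in all. Counted by gene, 20 of 41 members held it at a listed start, against 10.8% of 15557 genes. In 14 of the 21 member windows it lay only at or after the start site, that is in 66.7%, against 11.5% of the 1799 windows of table genes that held it. A match is a description of the letters and not a bound site.

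The motif lay before the start in 7 member windows, those of DDX21, IMP4 and LYAR not being shown here. The 250 bases before the start are shown for 4 members chosen because the motif (in capitals) lies within them. UTP20 and EBNA1BP2 are among the most lowered members, so the choice followed the response in part, and NOP10 holds 2 copies. The windows are chr12:101279855-101280104, plus strand, for UTP20, chr15:34343137-34343386, minus strand, for NOP10, chr17:51260296-51260545, plus strand, for UTP18, and chr1:43172571-43172820, minus strand, for EBNA1BP2. Each is written 5' to 3' on the strand of the gene.
UTP20: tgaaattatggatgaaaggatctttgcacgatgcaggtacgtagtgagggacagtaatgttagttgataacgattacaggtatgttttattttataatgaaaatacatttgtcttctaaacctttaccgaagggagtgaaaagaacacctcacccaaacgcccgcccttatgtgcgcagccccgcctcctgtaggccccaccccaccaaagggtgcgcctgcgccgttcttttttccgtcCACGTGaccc
NOP10: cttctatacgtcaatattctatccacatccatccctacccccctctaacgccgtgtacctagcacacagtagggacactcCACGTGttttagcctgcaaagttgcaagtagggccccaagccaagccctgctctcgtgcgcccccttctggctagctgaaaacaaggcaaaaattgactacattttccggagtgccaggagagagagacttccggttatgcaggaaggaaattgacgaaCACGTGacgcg
UTP18: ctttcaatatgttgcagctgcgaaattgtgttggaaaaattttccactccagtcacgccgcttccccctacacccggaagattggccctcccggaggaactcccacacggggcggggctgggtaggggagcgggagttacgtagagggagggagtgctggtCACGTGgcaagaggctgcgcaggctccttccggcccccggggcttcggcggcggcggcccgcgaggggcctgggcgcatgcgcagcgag
EBNA1BP2: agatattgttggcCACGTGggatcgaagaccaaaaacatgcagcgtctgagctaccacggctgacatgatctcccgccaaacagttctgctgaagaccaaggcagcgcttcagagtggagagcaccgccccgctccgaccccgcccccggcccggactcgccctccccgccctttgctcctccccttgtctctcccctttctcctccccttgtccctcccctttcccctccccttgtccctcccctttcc
The motif began 10 bases before the start of UTP20 and 170 and 11 bases before that of NOP10, so each of these genes held a copy close to its start. In UTP18 one copy began 89 bases before the start and a second copy lay at or after it. In EBNA1BP2 it began 237 bases before the first listed start, and the window of a second listed start held a copy at or after that start.

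Treatment lowered most members in 7 of the 8 comparisons with untreated cells of the same line and time. A member was called when its adjusted p was below 0.05 in edgeR's quasi-likelihood test, adjusted over all genes tested. In MV4-11, 8CA lowered 29 members at 8 h, when 5.77% of all genes were called lower, and 34 at 24 h, when 22.7% were. With 8AA 45 members fell at 8 h against 15.6% of all genes, and 36 at 24 h against 15.3%. In KG-1a, 8AA lowered 44 members at 8 h against 18% of all genes and 48 at 24 h against 26.6%, and 8CA lowered 40 at 24 h against 24%. The exception was 8CA at 8 h in KG-1a, where edgeR called 0 members, against 0.181% of all genes called lower and 0.7% higher. There 13 members were lower at an unadjusted p below 0.05, 0 were higher, and DESeq2 also called 0. The count for 8CA at 8 h in MV4-11 was 19 without untreated replicate A and 23 or 24 without any other library of that comparison. Of the 36 members lowered by 8AA at 24 h in MV4-11, 20 were called in each of the 4 fits that left out a library and 16 were not.

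**Figure D1:**
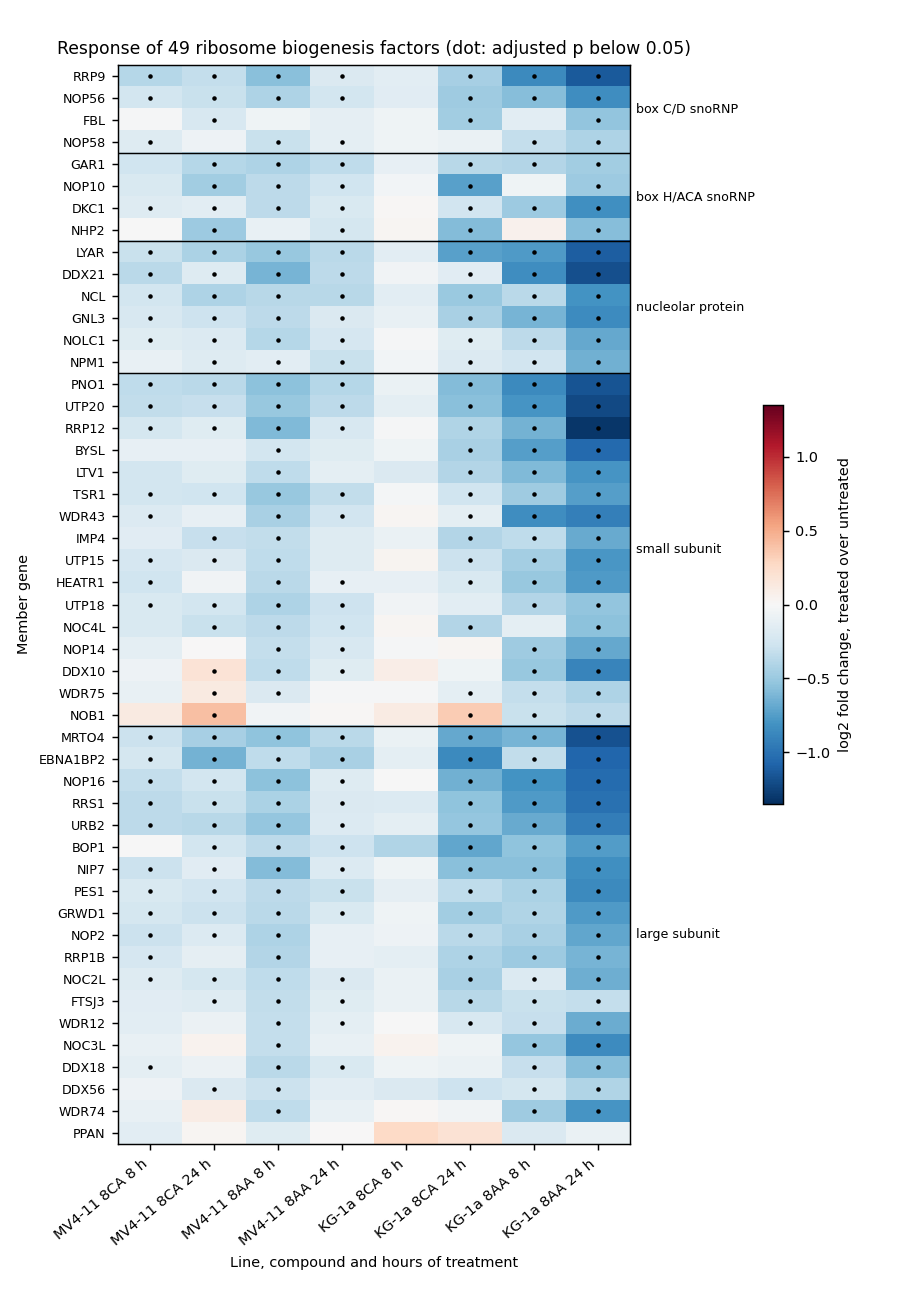
Heat map of the log2 fold change of 49 members (rows, grouped by role) in 8 comparisons of treated with untreated cells (columns); blue is lower, red is higher, and a dot marks an edgeR adjusted p below 0.05. The column for 8AA at 24 h in KG-1a is the darkest blue, with 48 members called, and the column for 8CA at 8 h in KG-1a holds no dot.

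The size of the shift differed more than its direction. The members' median log2 fold change in MV4-11 was -0.21 and -0.20 with 8CA at 8 h and 24 h, and 8AA gave -0.36 and -0.20. In KG-1a it was -0.06 and -0.39 for 8CA, and -0.48 and -0.76 for 8AA. The median over all genes tested lay between -0.0047 and 0.013 in these comparisons. Scaling by TMM assumes that most genes do not change. Falls and rises are therefore relative to the other genes of a library, and a change shared by most genes would not show. At 24 h 28 members were called lower in all 4 comparisons of line and drug, against 7.64% of all genes, 9 in 3, 8 in 2, 3 in 1, and 1, PPAN, in none. The 28 takes its calls from the fits of all libraries. Some of these calls were lost when 1 library was left out, among them those of BOP1 with both drugs and of FTSJ3 with 8AA in MV4-11. Both treated libraries lay below both untreated ones for 48 members with 8AA at 24 h in KG-1a, against 35.3% of all genes. For 8CA at 8 h in the same line this held for 28 members, against 24.8%.

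**Figure D2:**
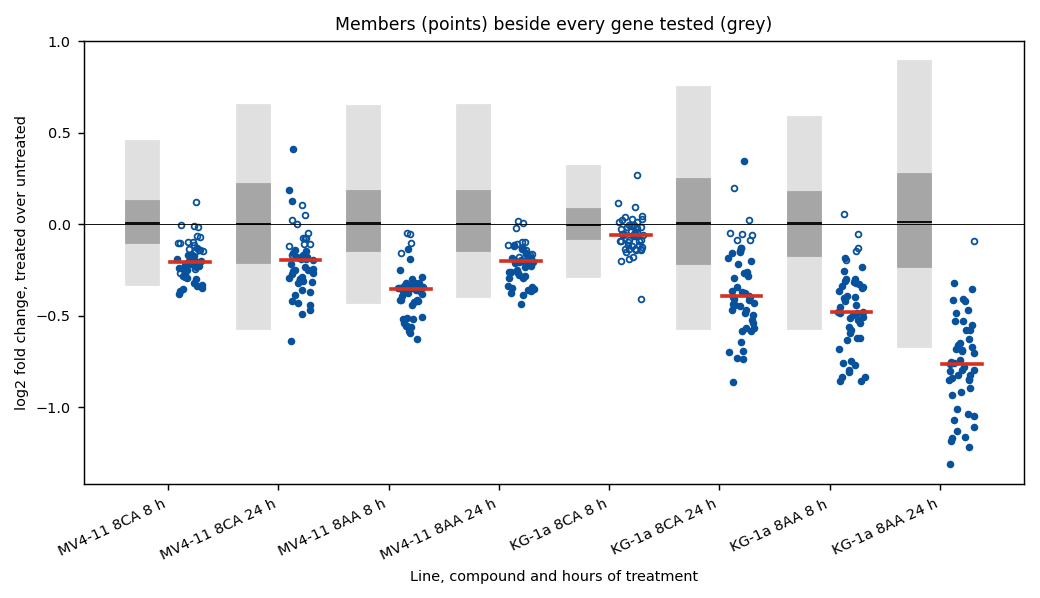
Log2 fold change of each member (points; filled where the edgeR adjusted p is below 0.05) beside all genes tested (pale grey, 5th to 95th percentile; dark grey, middle 50%; black line, median) in 8 comparisons, with the members' median in red. The members' median lies below that of all genes in every comparison, from -0.06 with 8CA at 8 h in KG-1a to -0.76 with 8AA at 24 h there.

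The members' share of each library's counts moved with the drug. It was 1.10% and 1.11% in untreated KG-1a libraries at 24 h, 0.904% and 0.902% in the 8CA libraries, and 0.725% and 0.680% in the 8AA libraries. In MV4-11 at 24 h it was 1.06% and 1.04% untreated, 0.931% and 0.922% in the 8CA libraries, and 0.895% and 0.916% in the 8AA libraries. Untreated, 8CA and 8AA libraries did not overlap in either line, and in MV4-11 the drug groups lay close together.

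Among box C/D proteins, RRP9, specific to the U3 particle that is needed for small subunit processing, had the lowest log2 fold change with 8AA at 24 h in KG-1a, while NOP56 and FBL lay below it with 8CA there, at -0.48 and -0.47. RRP9 was at 36.2 and 35.8 CPM in the untreated KG-1a libraries at 24 h, 26.6 and 26.3 in the 8CA libraries and 18.2 and 14.6 in the 8AA libraries. The 3 groups did not overlap, and the log2 fold change was -0.45 ± 0.084 (SE, edgeR adjusted p = 4.6e-04) with 8CA and -1.13 ± 0.089 (SE, edgeR adjusted p = 6.0e-08) with 8AA. In MV4-11 it stood at 66.0 and 69.7 CPM untreated at 8 h and 44.8 and 46.9 with 8AA, a log2 fold change of -0.57 ± 0.058 (SE, edgeR adjusted p = 5.5e-06). At 24 h in MV4-11 the RRP9 change with 8AA was smaller, -0.20, a call lost in some fits that left out 1 library. NOP56, a scaffold of the box C/D particle, was at 365 and 358 CPM in untreated KG-1a at 24 h and 215 and 188 with 8AA, log2 fold change -0.84 ± 0.056 (SE, edgeR adjusted p = 1.0e-08). Introns of NOP56 host snoRNA genes that the table lists separately. FBL fell at 24 h with 8CA in both lines, by 0.22 in MV4-11 and by 0.47 in KG-1a on the log2 scale. With 8AA at 24 h its log2 fold change was -0.53 in KG-1a, which was called, and -0.12 in MV4-11, which was not. FBL was called in none of the 4 comparisons at 8 h. NOP58 was called lower in 5 of 8 comparisons, down to -0.42.

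The box H/ACA proteins were each called lower in all 4 comparisons at 24 h, against 7.64% of all genes. DKC1, the pseudouridine synthase dyskerin, was at 278 and 284 CPM in untreated KG-1a at 24 h and 167 and 150.3 with 8AA, log2 fold change -0.83 ± 0.05 (SE, edgeR adjusted p = 3.8e-09). With 8CA in that line it stood at 236 and 233 CPM, log2 fold change -0.26 ± 0.049 (SE, edgeR adjusted p = 3.9e-04). GAR1, a partner of dyskerin, fell to 30.9 and 38.1 CPM with 8AA from 48.2 and 47.0 in KG-1a, by 0.47 on the log2 scale. For NOP10, another core protein, the log2 fold change at 24 h in KG-1a was -0.73 ± 0.067 (SE, edgeR adjusted p = 4.4e-07) with 8CA and -0.49 ± 0.066 (SE, edgeR adjusted p = 1.5e-05) with 8AA. Calls at 24 h in MV4-11 did not all hold when 1 of 4 libraries was left out, being lost with 8AA in 3 fits for NOP10, 2 for NHP2 and 1 for GAR1, and with 8CA in 3 for DKC1. At 8 h neither NOP10 nor NHP2, the remaining core protein, was called with either drug in KG-1a, where NHP2 with 8AA had a log2 fold change of 0.05.

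All 6 nucleolar proteins fell in all 4 comparisons at 24 h, against 7.64% of all genes. They also fell with 8AA at 8 h in both lines, against 15.6% of all genes in MV4-11 and 18% in KG-1a. NCL was at 2390.4 and 2384 CPM in untreated MV4-11 at 24 h, 1805 and 1763 in the 8CA libraries and 1772 and 1900.2 in the 8AA libraries. Both drug groups lay below the untreated one and overlapped each other, with log2 fold changes of -0.42 ± 0.045 (SE, edgeR adjusted p = 2.9e-06) and -0.38 ± 0.045 (SE, edgeR adjusted p = 2.2e-05). In KG-1a it was at 2563 and 2566 CPM untreated, 1809 and 1822 in the 8CA libraries and 1538 and 1402 in the 8AA libraries, so there the drug groups did not overlap. NPM1, often mutated in AML, was at 2383 and 2344 CPM in untreated KG-1a at 24 h, 2074 and 2079 in the 8CA libraries and 1599 and 1415 in the 8AA libraries. The 8AA libraries were the lowest of the 6, and the log2 fold change was -0.65 ± 0.05 (SE, edgeR adjusted p = 4.7e-08). GENCODE lists 45 pseudogenes named after NPM1, so reads that map to several copies make its counts less certain. DDX21, a helicase that binds rRNA precursors and Pol II genes of ribosomal proteins, was at 562 and 553 CPM untreated, 505 and 497 in the 8CA libraries and 244 and 246 in the 8AA libraries in KG-1a at 24 h. The 8AA level was 0.44 of the untreated one, log2 fold change -1.19 ± 0.042 (SE, edgeR adjusted p = 2.2e-11), while with 8CA it was -0.15 ± 0.041 (SE, edgeR adjusted p = 0.0057), a call lost without 8CA replicate B. The snoRNP chaperone NOLC1 and GNL3 (nucleostemin) changed by -0.70 and -0.85 with 8AA at 24 h in KG-1a, and LYAR by -1.11.

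**Figure D3:**
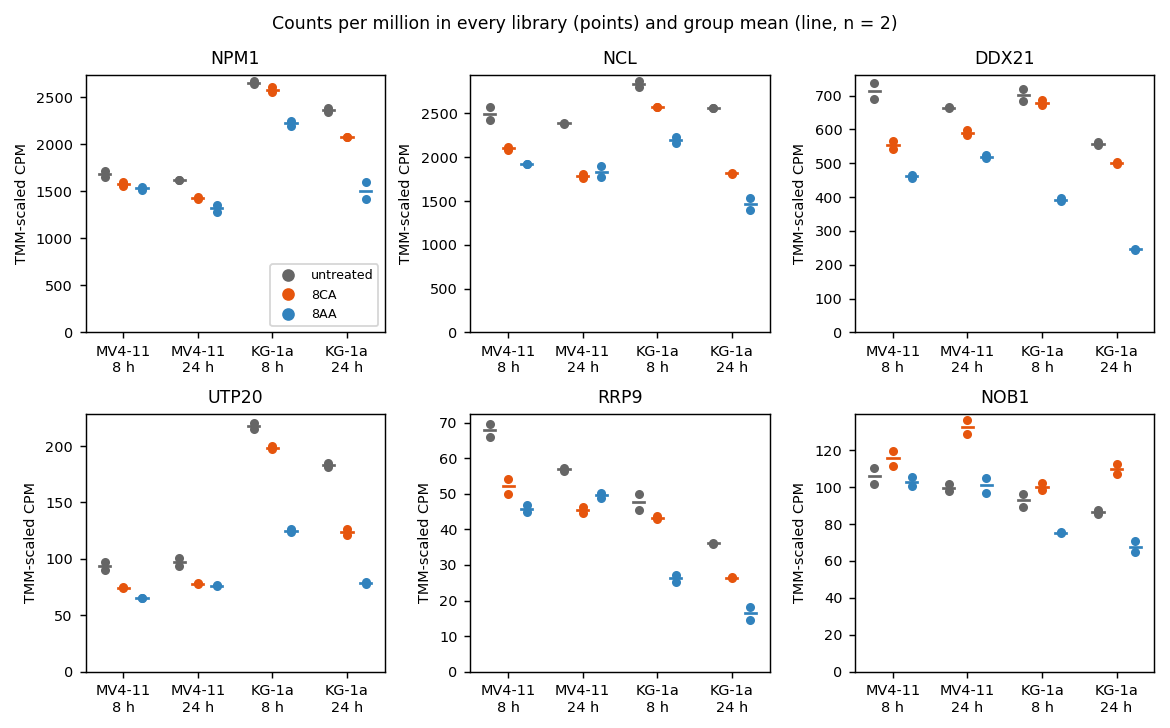
TMM-scaled CPM of 6 members in every library (points; line, mean of the 2 libraries of a group) by line and time, with untreated in grey, 8CA in orange and 8AA in blue; the vertical axes start at 0. For NPM1, NCL, DDX21, UTP20 and RRP9 both KG-1a 8AA libraries lie below the untreated ones at both times, and NOB1 with 8CA at 24 h lies above them in both lines.

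Of the 16 small subunit factors 16 fell with 8AA at 24 h in KG-1a and 10 in MV4-11, and 12 and 8 with 8CA, when 26.6%, 15.3%, 24% and 22.7% of all genes were called lower. RRP12, needed for export of the pre-40S particle, was at 66.7 and 69.8 CPM in untreated KG-1a at 24 h, 50.2 and 52.7 in the 8CA libraries and 29.4 and 25.4 in the 8AA libraries. The 3 groups did not overlap, and with 8AA the level was 0.403 of the untreated one, log2 fold change -1.31 ± 0.067 (SE, edgeR adjusted p = 9.8e-10). In MV4-11 the RRP12 change with 8AA was -0.60 ± 0.051 (SE, edgeR adjusted p = 1.3e-06) at 8 h and -0.22 ± 0.051 (SE, edgeR adjusted p = 0.0043) at 24 h. UTP20, a large processome scaffold, was at 185 and 182 CPM untreated in KG-1a at 24 h. It was at 126 and 121 in the 8CA libraries and 77.7 and 79.9 in the 8AA libraries. Its log2 fold changes were -0.57 ± 0.045 (SE, edgeR adjusted p = 9.0e-08) with 8CA and -1.22 ± 0.046 (SE, edgeR adjusted p = 4.8e-11) with 8AA. PNO1, which acts beside NOB1 on the pre-40S particle, was called lower in 7 of 8 comparisons, from -0.34 with 8CA at 8 h in MV4-11 to -1.16 with 8AA at 24 h in KG-1a. BYSL and LTV1, assembly factors of the late 40S particle, were each called in KG-1a with 8AA at both times and with 8CA at 24 h, with 24 h 8AA changes of -1.05 and -0.80. In MV4-11 both were called with 8AA at 8 h alone.

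HEATR1, WDR43 and NOP14, components of the processome, were lower with 8AA than with 8CA at both times in KG-1a. WDR43 was at 185 and 190.1 CPM in untreated KG-1a at 8 h, 192 and 191 in the 8CA libraries and 108 and 103 in the 8AA libraries. The 8CA libraries lay above the untreated ones without passing the test, and the 8AA change was -0.84 ± 0.045 (SE, edgeR adjusted p = 6.3e-09). NOP14 was called with 8AA in all 4 comparisons and with 8CA in none, its 24 h values in KG-1a being 0.02 ± 0.052 (SE, edgeR adjusted p = 0.76) with 8CA and -0.69 ± 0.053 (SE, edgeR adjusted p = 4.8e-08) with 8AA. HEATR1, which also takes part in rDNA transcription, stood at 249.9 and 244 CPM in untreated KG-1a at 24 h and 139 and 153 in the 8AA libraries, log2 fold change -0.76 ± 0.048 (SE, edgeR adjusted p = 7.1e-09). In MV4-11 its 8CA change was -0.27 at 8 h, which passed, and -0.05 at 24 h, which did not.

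NOB1, the endonuclease that makes the mature end of 18S rRNA, rose with 8CA at 24 h in both lines. In MV4-11 it was at 97.9 and 102 CPM untreated, 129 and 136 in the 8CA libraries and 96.8 and 105 in the 8AA libraries, and both 8CA libraries lay above all others. The log2 fold change was 0.41 ± 0.058 (SE, edgeR adjusted p = 4.5e-05) with 8CA and 0.02 ± 0.059 (SE, edgeR adjusted p = 0.85) with 8AA. In KG-1a at 24 h the levels were 87.6 and 85.6, 112 and 107 and 70.8 and 64.8 CPM, so that NOB1 rose with 8CA, by 0.34 ± 0.056 (SE, edgeR adjusted p = 1.4e-04), when 23.4% of all genes were called higher, and fell with 8AA, by 0.35 ± 0.058 (SE, edgeR adjusted p = 1.0e-04). DDX10 and WDR75 were called higher with 8CA at 24 h in MV4-11, when 21.2% of all genes were, at 0.19 ± 0.057 (SE, edgeR adjusted p = 0.014) and 0.13 ± 0.049 (SE, edgeR adjusted p = 0.048). Without 8CA replicate A both calls were lost, without untreated replicate A that of DDX10 and without untreated replicate B that of WDR75. In KG-1a, WDR75 was called lower with the same treatment, at -0.13 ± 0.05 (SE, edgeR adjusted p = 0.043), a call lost in all 4 such fits. PPAN was not called in any of the 8 comparisons. With 8AA at 24 h in KG-1a its 95% interval was -0.48 to 0.30, and its libraries there held 3.80 and 5.27 CPM.

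Of the 19 large subunit factors 18 fell with 8AA at 24 h in KG-1a and 13 in MV4-11, and 15 and 13 with 8CA, against the same 26.6%, 15.3%, 24% and 22.7% of all genes. In these 4 comparisons 0 of them were called higher by edgeR or by DESeq2, and 0 were higher at an unadjusted p below 0.05. The PeBoW complex (PES1, BOP1 and WDR12) drives a step of 5.8S and 28S rRNA processing, and in KG-1a with 8AA at 24 h its proteins' transcripts changed by -0.85, -0.76 and -0.67 on the log2 scale. PES1 was at 167 and 166 CPM untreated there and at 99.2 and 84.6 with 8AA, edgeR adjusted p = 1.7e-08. BOP1 was low, at 10.9 and 8.87 CPM untreated, and its SE of 0.16 was the widest of the 3. In MV4-11 at 24 h PES1, BOP1 and WDR12 changed less, by -0.30, -0.28 and -0.14 with 8AA and -0.26, -0.25 and -0.08 with 8CA. WDR12 was not called with 8CA there. The BOP1 calls with both drugs and the WDR12 call with 8AA were lost whenever 1 of the compared libraries was left out. EBNA1BP2, a nucleolar assembly factor, had the lowest 8CA change among members at 24 h in both lines. It was at 135 and 134 CPM untreated in MV4-11, 84.8 and 88.0 in the 8CA libraries and 97.0 and 102 in the 8AA libraries. The groups did not overlap, and the log2 fold changes were -0.64 ± 0.048 (SE, edgeR adjusted p = 7.9e-08) and -0.44 ± 0.048 (SE, edgeR adjusted p = 1.1e-05). In KG-1a it was at 100.2 and 104 CPM untreated and 55.1 and 57.1 with 8CA, log2 fold change -0.86 ± 0.057 (SE, edgeR adjusted p = 1.6e-08). By the spans in the table, the EBNA1BP2 locus overlaps 4 other genes, 3 of them on the other strand. The spans of LOC100132062 and LOC100133331, both among the 4, also take in NOC2L and MRTO4 on chromosome 1. The span of MIR1244-2 likewise takes in NOP58, NCL, WDR75, IMP4, WDR12 and DDX18 on chromosome 2. Such wide spans need not mean a local overlap. Of the 49 members 23 overlap some other gene when such spans are counted, and what this does to the members' counts was not tested.

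MRTO4, which holds the place of the ribosomal stalk proteins, was at 127 and 122 CPM in untreated KG-1a at 24 h and 57.9 and 52.4 with 8AA, log2 fold change -1.17 ± 0.061 (SE, edgeR adjusted p = 1.1e-09). RRS1, which joins the 5S particle to the precursor, changed by -1.01 ± 0.058 (SE, edgeR adjusted p = 2.7e-09), and NOP2, an rRNA cytosine methyltransferase, by -0.70 ± 0.055 (SE, edgeR adjusted p = 5.3e-08) in that comparison. NIP7 fell by 0.59 with 8AA at 8 h in MV4-11, from 99.1 and 97.1 to 65.9 and 64.8 CPM. FTSJ3, a methyltransferase of the rRNA precursor, fell at 24 h in KG-1a with both drugs, by 0.37 (8CA) and 0.32 (8AA), and the 95% interval of the log2 ratio of 8AA to 8CA was -0.06 to 0.15.

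Compared directly at equal dose and time, 8AA and 8CA differed for more members in KG-1a than in MV4-11. The pair was tested at 2 times in 2 lines, with p-values adjusted over all genes of each fit. In KG-1a 41 members were lower with 8AA than with 8CA at 8 h, against 15.8% of all genes, and 40 at 24 h, against 21.7%. The median log2 ratio of 8AA to 8CA was -0.40 and -0.41. DDX21 had the lowest ratio at 24 h, -1.03 ± 0.042 (SE, edgeR adjusted p = 2.6e-11), with 8CA libraries at 505 and 497 CPM and 8AA libraries at 244 and 246. NOP10 went the other way, at 0.25 ± 0.068 (SE, edgeR adjusted p = 0.0081), and was the 1 member called higher there, against 20.3% of all genes, a call lost without 8CA replicate B or 8AA replicate A. FBL was not called at 24 h, with a 95% interval -0.20 to 0.08.

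In MV4-11 fewer members differed between the drugs. At 8 h 22 members were lower with 8AA, against 3.7% of all genes, and RRP12 had a ratio of -0.36 ± 0.052 (SE, edgeR adjusted p = 7.0e-04). Leaving out 1 library brought that count to 7 (without 8AA replicate A), 8 (8CA replicate B), 10 (8CA replicate A) or 14 (8AA replicate B). It was 2 when the compared libraries alone were fitted and 13 in the fit of all 24 libraries. At 24 h 8 members were lower with 8AA and 3 higher, against 9.48% and 11.7% of all genes, and the median ratio was -0.02. NOB1 at -0.39 ± 0.058 (SE, edgeR adjusted p = 2.4e-04) and DDX10 at -0.35 ± 0.057 (SE, edgeR adjusted p = 5.3e-04) were the lowest, both being genes that rose with 8CA. NHP2 at 0.26 ± 0.062 (SE, edgeR adjusted p = 0.0075) was the highest. The count of 8 became 3 without 8CA replicate A, 5 without 8CA replicate B and 4 without 8AA replicate A, and the count of 3 became 0 without 8CA replicate A or 8AA replicate B. For the 38 members not called, the 95% intervals of the difference lay between -0.27 and 0.37.

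**Figure D4:**
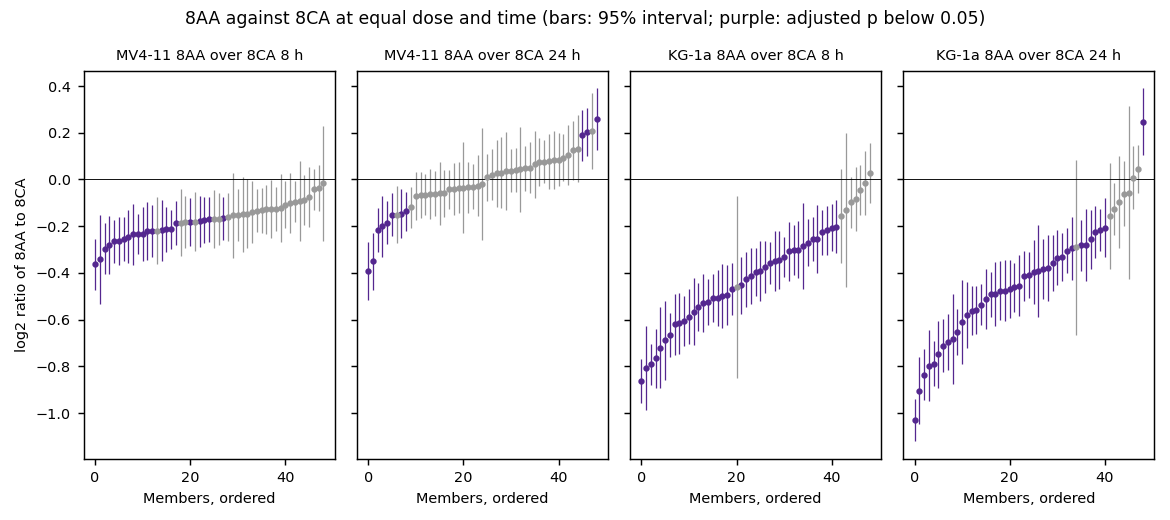
Log2 ratio of 8AA to 8CA for 49 members, ordered within each panel, by line and time, with 95% intervals; purple marks an edgeR adjusted p below 0.05. The KG-1a panels reach -0.86 at 8 h and -1.03 at 24 h, and at 24 h in MV4-11 the members lie around 0.

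The members' response differed between 8 h and 24 h. In KG-1a it was lower at 24 h for 27 members with 8CA, against 12.7% of all genes called lower, and for 32 with 8AA, against 10.7% (19 members without 8AA 8 h replicate A). NOB1 was the 1 member called higher there, with 8CA, at 0.23 ± 0.08 (SE, edgeR adjusted p = 0.047), against 11.2% of all genes, and that call was lost in 7 of the 8 fits that left out a library, all but the one without untreated 8 h replicate B. EBNA1BP2 moved most with both drugs, by -0.73 ± 0.079 (SE, edgeR adjusted p = 1.3e-05) with 8CA and -0.73 ± 0.079 (SE, edgeR adjusted p = 3.0e-05) with 8AA. In MV4-11 with 8AA 9 members had a smaller fall at 24 h than at 8 h, against 2.51% of all genes called in that direction, and 0 a larger one, against 2.12%. That 0 is edgeR's, with 1 member at an unadjusted p below 0.05 and 0 called by DESeq2. NIP7 led the 9 at 0.40 ± 0.072 (SE, edgeR adjusted p = 0.0067), and their number was 2 without untreated 24 h replicate B or 8AA 24 h replicate A and 5 without untreated 8 h replicate B or 8AA 8 h replicate A. With 8CA 5 members were called in that direction, against 6.48%, and 2, NHP2 and EBNA1BP2, in the other, against 9.83%. The 5 were DDX21, HEATR1, WDR75, DDX10 and NOB1, and each of the 8 fits without 1 library called 1 (without untreated 24 h replicate B) to 3 members in that direction.

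Untreated cells also changed between 8 h and 24 h. Between untreated KG-1a libraries 21 members were lower at 24 h, against 1.97% of all genes, with a median of -0.19. RRP12 was at 94.3 and 89.9 CPM at 8 h and 66.7 and 69.8 at 24 h, a change of -0.43 ± 0.061 (SE, edgeR adjusted p = 0.0015). That count was 2 to 6 when 1 library was left out (2 without either 24 h library, 6 without either 8 h library). In MV4-11 6 members were lower, against 2.16%, and without 1 library 0 (24 h replicate B), 1 (24 h replicate A or 8 h replicate B) or 3 (8 h replicate A).

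The 2 lines differed in the depth of the fall with 8AA. The 24 h response to 8AA was less negative in MV4-11 for 43 members, against 13.8% of all genes called in that direction, with a median difference of 0.58. RRP12 differed by 1.11 ± 0.083 (SE, edgeR adjusted p = 1.9e-09) and UTP20 by 0.89 ± 0.067 (SE, edgeR adjusted p = 2.0e-09). At 8 h this held for 9 members, against 7.49%, with BYSL at 0.54 ± 0.11 (SE, edgeR adjusted p = 0.0016) and WDR43 at 0.43 ± 0.059 (SE, edgeR adjusted p = 3.6e-05). With 8CA at 24 h it held for 15 members, against 5.76%, and for 4 (without KG-1a untreated replicate A or KG-1a 8CA replicate A) to 8 (without MV4-11 8CA replicate B) when any 1 library was left out. At 8 h with 8CA, DDX21 alone was called, and its fall was larger in MV4-11, by -0.31 ± 0.057 (SE, edgeR adjusted p = 0.0051), against 0.726% of all genes called lower, a call lost without untreated 8 h replicate A of either line.

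**Figure D5:**
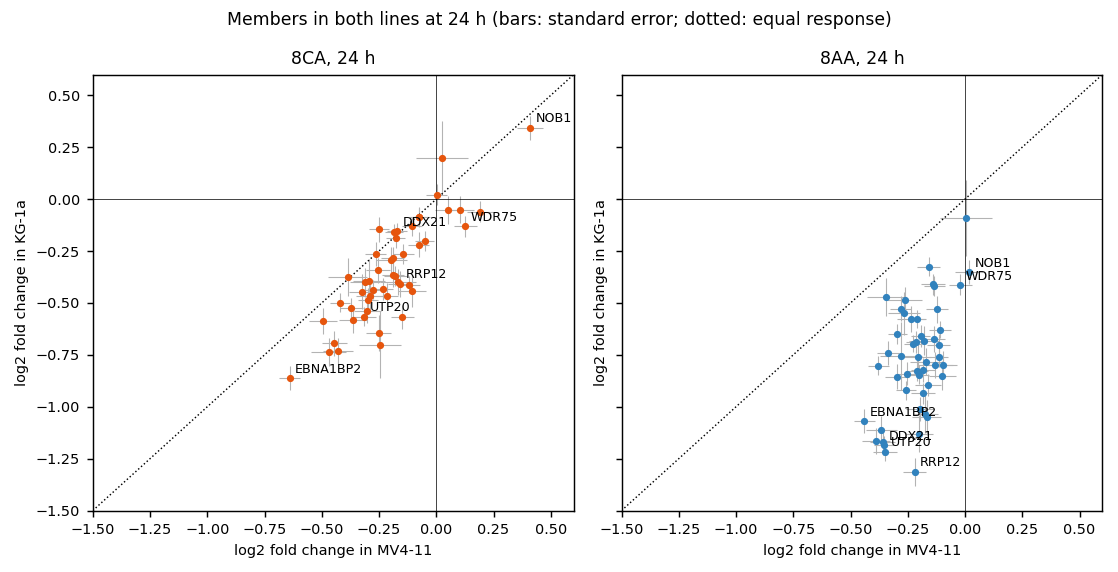
Log2 fold change of 49 members at 24 h in MV4-11 (horizontal) and KG-1a (vertical), for 8CA (left) and 8AA (right), with standard errors; the dotted line marks equal response. With 8AA the members lie below the line, RRP12 at -0.22 in MV4-11 and -1.31 in KG-1a, and with 8CA they lie nearer to it, NOB1 being higher in both.

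Factors outside the member list were tested in the same fits. Of 116 other ribosome biogenesis factors 97 were lower and 2 higher with 8AA at 24 h in KG-1a, with a median of -0.45, and 84 were lower and 2 higher with 8AA at 8 h in MV4-11. With 8CA at 24 h 54 were lower and 10 higher in KG-1a, and 40 and 15 in MV4-11. The share lower was 83.6% with 8AA at 24 h in KG-1a, against 26.6% of all genes, and 72.4% with 8AA at 8 h in MV4-11, against 15.6%. For 8CA at 24 h it was 46.6% in KG-1a, against 24%, and 34.5% in MV4-11, against 22.7%, and the shares higher were 8.62% and 12.9%, against 23.4% and 21.2%. CCDC86, a nucleolar protein, was among the lowest with 8AA, at -1.28 ± 0.073 (SE, edgeR adjusted p = 2.7e-09) at 24 h in KG-1a. NOP53, which brings the exosome to the pre-60S particle, rose in 6 of the 8 comparisons, up to 0.90 ± 0.065 (SE, edgeR adjusted p = 4.1e-08) with 8CA at 24 h in KG-1a. RSL24D1, another pre-60S factor, rose there by 0.92 ± 0.064 (SE, edgeR adjusted p = 2.6e-08).

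Of 13 genes of RNA polymerase I transcription 8 were lower and 1 higher with 8AA at 24 h in KG-1a, and 4 and 2 with 8CA. In percent that is 61.5% lower with 8AA, against 26.6% of all genes, and 30.8% lower and 15.4% higher with 8CA, near the 24% and 23.4% of all genes. POLR1A, the largest subunit of the enzyme, was at 258 and 267 CPM untreated and 139.9 and 138 with 8AA, log2 fold change -0.92 ± 0.043 (SE, edgeR adjusted p = 4.0e-10). POLR1B, the second subunit, changed by -0.88 ± 0.044 (SE, edgeR adjusted p = 8.4e-10). RRN3, which recruits the polymerase to the promoter, rose with 8CA, by 0.20 in MV4-11 and 0.28 in KG-1a at 24 h, and fell with 8AA in KG-1a by 0.35. UBTF, which binds the rDNA promoter, had a log2 fold change of -0.06 ± 0.049 (SE, edgeR adjusted p = 0.33) with 8AA at 24 h in KG-1a.

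MYC rose with 8CA at 24 h in both lines. It was at 590.0 and 582 CPM in untreated MV4-11 at that time, 730.2 and 749 in the 8CA libraries and 603 and 642 in the 8AA libraries, a log2 fold change with 8CA of 0.34 ± 0.045 (SE, edgeR adjusted p = 2.4e-05). In KG-1a at 24 h the levels were 441 and 455, 560.0 and 548 and 308 and 265 CPM, so that MYC rose with 8CA, by 0.31 ± 0.059 (SE, edgeR adjusted p = 5.2e-04), and fell with 8AA, by 0.64 ± 0.06 (SE, edgeR adjusted p = 3.6e-07). At 8 h 8AA changed it by -0.90 ± 0.06 (SE, edgeR adjusted p = 5.0e-08) in KG-1a and -0.44 ± 0.045 (SE, edgeR adjusted p = 5.0e-06) in MV4-11. The part of MYC in the members' response was not tested.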

How the data were processed

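RNA-seq counts per gene were analysed for 24 libraries. The counts are raw, as deposited by the authors. The submitters' processing notes name Trimmomatic, STAR 2.6.0, HTSeq 0.11.1 and edgeR, and the builds hg19 and hg38, without saying which step used which. Of 49 member starts in the table, 2 lay within 5 kb of those of GRCh38.p14, so its coordinates are not printed and served only to find genes that overlap within the table. Members and lists were chosen with earlier results of these data known. Members named in the text were a panel of representatives of each role, up to the 3 lowest and 3 highest called members per comparison, and members never called or called in opposite directions.

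Groups came from sample titles. Genes were filtered with filterByExpr (minimum count 10), scaled by TMM and tested with edgeR 4.0.16 (quasi-likelihood, 1 coefficient per group, 12 libraries of a line), with Benjamini-Hochberg adjustment and a threshold of 0.05. Differences between lines used a fit of all 24 libraries. DESeq2 1.42.0 was an alternative, among those under the closing section. The code was tested on simulated data. Depth was 18633963 to 24520078 counts. CPM in the text are TMM-scaled within each line, so levels of the 2 lines are compared only through the 24-library fit or per kilobase as separate values. Promoter windows are from RefSeq, and every listed start of a gene was searched.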

Additional observations from a re-analysis of the deposited data

Results flagged for a closer look

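Each of these results is a difference between responses, tested as an interaction term in edgeR. Between times, members with a higher response at 24 h than at 8 h numbered 5 for 8CA, against 6.48% of all genes, and 9 for 8AA, against 2.51%, in MV4-11. Leaving out 1 library brought these to 1 to 3 and 2 to 6. In KG-1a, members with a lower one numbered 27 for 8CA, against 12.7%, and 32 for 8AA, against 10.7%. NOB1 was the 1 member with a higher response at 24 h in KG-1a with 8CA, by 0.23, and in MV4-11 it differed by 0.29.

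Between lines, the response of MV4-11 was higher (less lowered, or raised) than that of KG-1a for 15 members with 8CA at 24 h (5.76% of all genes, and 4 to 8 members without 1 library), for 9 with 8AA at 8 h (7.49%) and for 43 with 8AA at 24 h (13.8%). RRP12 showed the widest gap with 8AA at 24 h, 1.11 on the log2 scale. DDX10 and WDR75, called higher with 8CA at 24 h in MV4-11, differed by 0.27 and 0.28. With 8CA at 8 h 1 member, DDX21, was called, with a response lower in MV4-11 by -0.31. No cause was tested for any of these.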

How the results depend on the processing

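The alternatives run were 3 other scalings, 2 other filters, a replicate block, fits of other library sets, DESeq2 and leaving out each library. Under none of these did a member called in the 8 comparisons with untreated cells change sign. For the other comparisons only counts of members and medians were compared, so the signs of single members were not checked. Scaling by library size or upper quartile each brought the count for the time difference with 8AA in KG-1a to 20 lower and for untreated KG-1a at 24 h to 12 lower. Without a filter, 8CA at 8 h in KG-1a had 1 member lower, untreated MV4-11 at 24 h had 10 lower, the line difference at 8 h had 2 lower for 8CA and, for 8AA, 1 lower and 5 higher, and the 1 higher call for time with 8CA in KG-1a became 0, as with DESeq2 and the fit of 24 libraries. With the compared libraries alone, 8CA at 8 h in KG-1a had 2 lower and 8AA against 8CA at 8 h in MV4-11 had 2 lower, against 13 in the fit of 24 libraries. DESeq2 gave 3 higher for time with 8CA in MV4-11. The cause was not tested in these cases.

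The labels do not say that the letters pair libraries, and not every pair of groups correlated over 0.1: deviations of same-lettered libraries correlated at -0.12 to 0.16 in MV4-11 (median 0.078, 6 of 15 pairs of groups over 0.1, among them all 3 at 8 h, at 0.13 to 0.16) and -0.085 to 0.16 in KG-1a (2 of 15). The samples were therefore fitted without pairing. A replicate block gave 36 lower with 8CA at 8 h in MV4-11 (29 without it), 5 lower for time with 8CA in MV4-11, 1 lower for time with 8AA, and 12 lower for untreated MV4-11 at 24 h, and moved no other member count by over 1.5 times. With the letters of untreated MV4-11 at 24 h crossed, chosen after seeing the data because that pair correlated below -0.1, the last count was 17.

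Leaving out 1 library gave 1 to 3 members higher with 8CA at 24 h and 19 to 24 lower with 8CA at 8 h in MV4-11. For 8AA against 8CA it gave 3 to 6 lower and 0 to 4 higher at 24 h and 7 to 14 lower at 8 h in MV4-11, and 0 to 1 higher at 24 h in KG-1a. For time it gave 1 to 3 higher with 8CA and 2 to 6 higher with 8AA in MV4-11, 0 to 1 higher with 8CA and 19 to 38 lower with 8AA in KG-1a. For lines it gave 4 to 8 higher with 8CA at 24 h and 0 to 1 lower at 8 h, and for untreated cells at 24 h 0 to 3 lower in MV4-11 and 2 to 6 in KG-1a. A lone library is there assumed to vary as the other groups do. The 48 members lowered by 8AA at 24 h in KG-1a were each called in all 4 such fits. Elsewhere calls in either direction were lost in at least 1 fit for 2 of 44 (8AA 8 h) and 4 of 41 (8CA 24 h) in KG-1a, and in MV4-11 for 16 of 36 (8AA 24 h), 4 of 45 (8AA 8 h), 10 of 37 (8CA 24 h) and 12 of 29 (8CA 8 h). Library size scaling put 35.5% of called genes of that comparison in the lower direction, against 51.2% with TMM, while the members' median was -0.67 against -0.76. Among all genes called, that share moved by over 10 points in 11 of 23 comparisons under library size scaling and in 9 under upper-quartile scaling.

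Groups of 2 libraries limit the precision of each value, and PPAN, the lowest member, had 95% intervals too wide to show a small change. Taking the first listed start of each gene, in place of every one, gave the CACGTG motif in 16 of 41 member promoters (39.0%) against 8.77% of genes in the table, an alternative chosen after seeing the data.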

Other observations

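Members holding CACGTG at a listed start (20 genes) and those without (21 genes) were set side by side, as a description and with no test. With 8AA at 24 h in KG-1a their median log2 fold changes were -0.85 and -0.74, and with 8CA at 24 h there -0.42 and -0.28. In MV4-11 at 24 h they were -0.27 and -0.18 for 8CA, and for 8AA -0.26 and -0.17.

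The order of the members was compared between treatments that share no library. Across the 49 members, the log2 fold changes of the 2 lines at 24 h correlated with a Pearson r of 0.85 (Spearman rho 0.81) for 8CA and 0.53 (rho 0.41) for 8AA. At 8 h the corresponding r was 0.28 (rho 0.46) for 8CA and 0.71 (rho 0.68) for 8AA. Between 8 h and 24 h of one line, r was 0.79 (rho 0.85) for 8AA and 0.63 (rho 0.57) for 8CA in KG-1a, and 0.51 (rho 0.52) and 0.53 (rho 0.51) in MV4-11. These are correlations across genes, which are not independent replicates, and the points of one comparison share its untreated libraries.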
